A study of Mus musculus with 8 samples.

Results

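The genes described here are 10 components of the Hedgehog signalling pathway and of the ventral neural tube: Shh, Ptch1, Smo, Gli1, Gli2, Gli3, Hhip, Nkx6-1, Nkx2-1 and Foxa2. They were chosen by name and not by any measured value, and each matched a single entry among the 46406 entries of the deposited expression table, of which 20570 carried a gene symbol. Poly(A) RNA was sequenced from anterior neural progenitor cells of the mouse, which stand in for early forebrain tissue in culture. They were obtained from E14 embryonic stem cells in medium free of serum; bFgf was present in the early days, and Xav939, an inhibitor of WNT signalling, in the later ones. Clone 1 (2 libraries) and clone 2 (2 libraries) both carried the homozygous deletion PE Lhx5(-109)-/-, which removes a poised enhancer of the LIM homeobox gene Lhx5 and was made with Cas9 and a pair of guide RNAs. The 4 wild-type (WT) libraries came from E14 cells with no deletion. All 3 groups went through the same differentiation, in which the labels list no Hedgehog ligand or agonist. Each clone is a single line grown after dilution of transfected, puromycin-selected cells, and WT has no clone label, so the deletion and clone derivation cannot be told apart. The labels call the libraries biological replicates without saying what was grown separately, so p-values measure only the spread between these libraries.

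Hedgehog ligands are secreted proteins that bind the receptor Ptch1 and thereby free the membrane protein Smo, which acts at the primary cilium to keep the Gli transcription factors in their activating form. Without ligand, Gli3 in particular is processed into a repressor. Ptch1, Hhip and Gli1 are themselves induced by the pathway and serve as readouts of it. In the embryo, Shh from the notochord, the prechordal plate and the floor plate sets ventral identity: Foxa2 marks the floor plate, Nkx2-1 the ventral forebrain and Nkx6-1 ventral progenitors along the neural tube.

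The deletion was visible in Lhx5, which had 1.24 and 0.854 FPKM in clone 1, 1.90 and 1.26 FPKM in clone 2, and 16.9, 17.5, 16.2 and 15.0 FPKM in WT. FPKM are fragments scaled by gene length and by the library's mapped total. The anterior neural genes Otx2 (159 to 222 FPKM over the 8 libraries), Sox2 (119 to 140 FPKM) and Six3 (3.86 to 21.9 FPKM) were detected throughout. Detection does not mean equal levels, and the changes of the anterior marker list are given further below. Clone 1 replicate 2 stood apart from the other 7 libraries in 3 RNAs that lack a poly(A) tail: Rn7sk was at 250.2 FPKM there and at most 28.4 FPKM elsewhere, Rpph1 at 371 against at most 22.8, and Rmrp at 112 against at most 7.62. Read totals per library were not analysed here; the authors' mean reads per gene summed to 26864352 in null and 26693189 in WT. Of all entries, 14521 had a mean of at least 1 FPKM over the 8 libraries and were tested.

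The start regions of the genes whose levels are compared most closely below are shown for reference, with every CpG in capitals. Each window runs from 250 bases before to 50 bases after a start of the gene in RefSeq on GRCm38.p6. It reads 5′ to 3′ on the gene's strand. The windows of Ptch1, Nkx6-1 and Gli3 lie wholly inside the genes as GENCODE M21 places them, so they do not show the outermost starts. There, Ptch1 begins at base 63573598, Nkx6-1 at 101664996 and Gli3 at 15463235. Ptch1 lies at chr13:63565686-63565985 on the minus strand, Smo at chr6:29735247-29735546 on the plus strand, Nkx6-1 at chr5:101664662-101664961 on the minus strand, and Nkx2-1, shown as a ventral homeobox gene that was barely detected, at chr12:56536859-56537158 on the minus strand.
Ptch1: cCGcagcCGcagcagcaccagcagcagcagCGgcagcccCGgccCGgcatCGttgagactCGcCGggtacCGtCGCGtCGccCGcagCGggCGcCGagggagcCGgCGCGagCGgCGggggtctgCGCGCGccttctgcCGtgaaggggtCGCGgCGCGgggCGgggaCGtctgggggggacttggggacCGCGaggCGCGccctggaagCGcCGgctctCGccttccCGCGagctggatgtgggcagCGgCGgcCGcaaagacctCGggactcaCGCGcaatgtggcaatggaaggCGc
Smo: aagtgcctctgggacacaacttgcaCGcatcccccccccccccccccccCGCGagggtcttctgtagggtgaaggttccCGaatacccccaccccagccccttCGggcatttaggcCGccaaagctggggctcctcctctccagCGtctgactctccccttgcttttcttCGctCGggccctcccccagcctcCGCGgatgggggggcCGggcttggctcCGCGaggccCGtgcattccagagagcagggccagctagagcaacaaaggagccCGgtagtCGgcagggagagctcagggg
Nkx6-1: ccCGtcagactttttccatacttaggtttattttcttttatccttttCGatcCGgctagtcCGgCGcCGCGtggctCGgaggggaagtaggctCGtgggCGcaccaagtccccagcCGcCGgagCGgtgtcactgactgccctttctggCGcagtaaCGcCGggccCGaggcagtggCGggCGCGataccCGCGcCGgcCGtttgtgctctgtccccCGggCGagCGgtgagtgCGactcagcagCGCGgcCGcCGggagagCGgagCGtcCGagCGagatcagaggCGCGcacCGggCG
Nkx2-1: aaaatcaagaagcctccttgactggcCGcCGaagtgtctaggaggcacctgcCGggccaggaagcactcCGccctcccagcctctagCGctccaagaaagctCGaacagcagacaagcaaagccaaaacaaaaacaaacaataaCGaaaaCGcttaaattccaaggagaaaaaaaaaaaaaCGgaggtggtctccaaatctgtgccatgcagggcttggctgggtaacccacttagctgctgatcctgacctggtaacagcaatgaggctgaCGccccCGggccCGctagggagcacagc
The Ptch1 window held 47 CpGs, more than 98.6 percent of the 32851 windows in the same table, whose median was 7. Nkx6-1 held 40 CpGs and Gli3 held 39, against 17 for Smo and 12 for Nkx2-1. The Nkx6-1 window held more than 96.1 percent of all windows, that of Smo more than 68.6 percent and that of Nkx2-1 more than 60.4 percent. Of the 10 genes, 8 had a window there, and Foxa2 had several, which made 10 windows in all. The GLI binding motif GACCACCCA, searched on both strands (TGGGTGGTC on the other), was in 0 of these 10 windows and in 83 of all 32851 (0.253 percent). That count says only that these letters are not in these short windows.

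In WT cells the receiving side of the pathway was transcribed and its ligand was not detected. Smo was the highest of the 10 genes, at 71.4, 71.3, 73.8 and 71.4 FPKM, which exceeded 94.9 percent of the 26652 entries with a WT level above 0. Gli3 followed at 24.8 ± 0.894 FPKM (SD, n = 4), then Gli2 at 12.7 ± 0.943, Ptch1 at 6.21 ± 0.144 and Nkx6-1 at 2.82 ± 0.149 FPKM. The WT ranges of each of these neighbours in the order did not overlap. Gli1, at 0.494 ± 0.0604 FPKM, Hhip, at 0.202 ± 0.0395, Foxa2, at 0.110 ± 0.0694, and Nkx2-1, at 0.0613 ± 0.0451, were below 1 FPKM. The WT ranges of Hhip and Foxa2 overlapped, as did those of Foxa2 and Nkx2-1, so their order was not resolved. Per length, Smo thus stood 2.91 times above Gli3, and Nkx6-1 stood 5.71 times above Gli1.

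**Figure D1:**
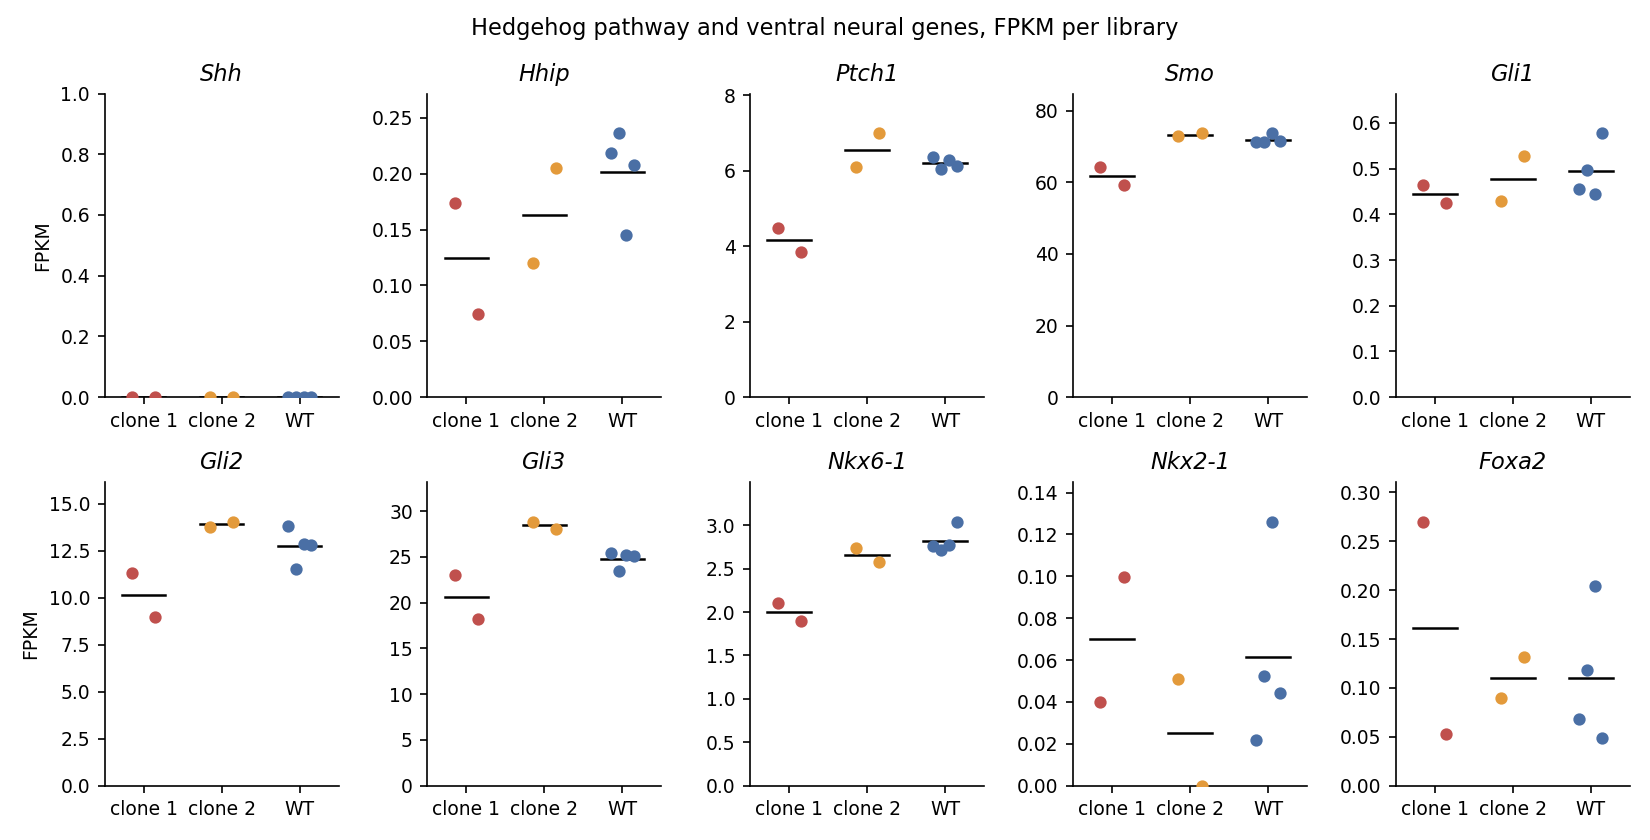
FPKM of the 10 Hedgehog pathway and ventral neural genes in each library, with a panel per gene, its own axis from 0, points for libraries and a line for the group mean (clone 1 and clone 2, n = 2 each; WT, n = 4). Shh was at 0 in all 8 libraries, and for Ptch1, Smo, Gli2, Gli3 and Nkx6-1 both clone 1 points lie below every WT and clone 2 point. Of all genes tested, 29.2 percent had both clone 1 libraries below all WT libraries, and 40.1 percent had them below both clone 2 libraries.

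Shh, the ligand, was listed at 0 FPKM in all 8 libraries, and its mean read count in the authors' deposited table was 0.00 in null and 0.00 in WT. A total of 0 reads over 4 libraries allows up to 3, a mean of 0.75 reads per library, for counting error only. The other ligands were below 1 FPKM as well: Ihh, a ligand of cartilage and gut, lay at 0.107 and 0.144 FPKM in clone 1, 0.222 and 0.163 in clone 2 and 0.0592 to 0.120 in WT. Dhh, a ligand of testis and peripheral nerve, lay at 0.0137 to 0.126 FPKM over the 8 libraries. No Hedgehog ligand therefore reached 1 FPKM in any library.

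Ptch1, the receptor and a target of the pathway, was lower in clone 1 and not in clone 2. It had 4.49 and 3.85 FPKM in clone 1, 6.10 and 6.997 FPKM in clone 2, and 6.36, 6.05, 6.29 and 6.13 FPKM in WT. The clone 1 libraries lay below all others, while 1 clone 2 library lay within the WT range and the other above it. In bulk RNA, fewer cells of a type and less RNA per cell cannot be told apart. On the log2(FPKM + 1) scale, Ptch1 changed by -0.48 in clone 1 against WT (SE 0.0800, limma adjusted p = 0.00906) and by 0.06 in clone 2 against WT (SE 0.0800, limma adjusted p = 0.638). The clones differed from each other by 0.55, clone 2 minus clone 1 (SE 0.0924, limma adjusted p = 0.00246). Without clone 1 replicate 2 the change in clone 1 was -0.39 (limma adjusted p = 0.0594), past the threshold no longer, while the difference between the clones passed under every alternative tried (limma adjusted p of at most 0.0237).

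Smo, the transducer that Ptch1 holds in check, had 64.2 and 59.3 FPKM in clone 1, 73.1 and 73.7 FPKM in clone 2, and 71.3 to 73.8 FPKM in WT. It followed the same order as Ptch1, by a smaller amount. Its log2 change was -0.22 in clone 1 against WT (SE 0.0414, limma adjusted p = 0.0130), 0.03 in clone 2 against WT (SE 0.0414, limma adjusted p = 0.697) and 0.25 in clone 2 against clone 1 (SE 0.0478, limma adjusted p = 0.00434). The drop in clone 1 was -0.16 without clone 1 replicate 2 (limma adjusted p = 0.0669). Set against Smo in the same library, Ptch1 was at a ratio of 0.0650 to 0.0700 in clone 1, 0.0834 to 0.0950 in clone 2 and 0.0849 to 0.0891 in WT. The ratio in clone 1 thus lay below its range in both other groups. It restates that Ptch1 changed by more than Smo in clone 1, and the ratio itself was not tested.

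Gli2, the main activator among the Gli factors in mouse, had 11.3 and 8.97 FPKM in clone 1, 13.8 and 14.0 FPKM in clone 2, and 13.8, 11.5, 12.9 and 12.8 FPKM in WT. Gli3, the main source of the repressor form, had 23.0 and 18.2 FPKM in clone 1, 28.9 and 28.0 FPKM in clone 2, and 25.4, 23.4, 25.2 and 25.1 FPKM in WT. For both genes the clone 1 libraries were the lowest, and for Gli3 the clone 2 libraries were the highest of the 8. Neither clone passed the threshold against WT: the log2 changes of Gli2 were -0.31 in clone 1 (limma adjusted p = 0.0616) and 0.12 in clone 2 (limma adjusted p = 0.433), and those of Gli3 were -0.26 (limma adjusted p = 0.0643) and 0.19 (limma adjusted p = 0.155). The clones differed from each other in both genes, by 0.43 for Gli2 (SE 0.111, limma adjusted p = 0.0152) and by 0.46 for Gli3 (SE 0.0960, limma adjusted p = 0.00631), clone 2 minus clone 1. For Gli2 that call was lost without clone 1 replicate 2 and without clone 2 replicate 2 (limma adjusted p of up to 0.0768). Without clone 1 replicate 1, Gli3 passed the threshold in clone 1 against WT at -0.42 (limma adjusted p = 0.00812) and Gli2 passed as well at -0.46 (limma adjusted p = 0.0178); Gli2 also passed without WT replicate 2. With either of the clone 1 libraries left out, Gli3 passed in clone 2 against WT, with a limma adjusted p as low as 0.0340. The ratio of Gli2 to Gli3 was nearly constant, at 0.493 in each clone 1 library, 0.478 to 0.501 in clone 2 and 0.491 to 0.544 in WT.

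Gli1, the Gli factor that the pathway itself induces, stayed below 1 FPKM in every library: 0.465 and 0.425 FPKM in clone 1, 0.430 and 0.527 FPKM in clone 2, and 0.455, 0.498, 0.445 and 0.578 FPKM in WT. Hhip, which binds Hedgehog ligands at the cell surface and is also induced by the pathway, had 0.174 and 0.0748 FPKM in clone 1, 0.120 and 0.205 FPKM in clone 2, and 0.145 to 0.236 FPKM in WT. The groups overlapped for both genes. In the authors' deposited table these levels correspond to 58.32 mean reads in null and 59.43 in WT for Gli1, and to 16.30 in null and 23.72 in WT for Hhip. In a fit without the filter on low values and with a pseudocount of 0.1, neither gene passed in any comparison; in clone 1 against WT the log2 change was -0.12 for Gli1 (limma adjusted p = 0.743) and -0.45 for Hhip (limma adjusted p = 0.375). No difference between the groups was detected in either gene.

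Nkx6-1 was the only one of the ventral transcription factors among the 10 genes above 1 FPKM. It had 2.11 and 1.90 FPKM in clone 1, 2.74 and 2.58 FPKM in clone 2, and 2.76, 2.71, 2.78 and 3.04 FPKM in WT. The clone 1 libraries lay below all others, and 1 clone 2 library lay within the WT range and the other below it. The log2 change was -0.35 in clone 1 against WT (SE 0.0797, limma adjusted p = 0.0237), -0.06 in clone 2 against WT (SE 0.0797, limma adjusted p = 0.643) and 0.28 in clone 2 against clone 1 (SE 0.0921, limma adjusted p = 0.0373). The call in clone 1 was lost without clone 1 replicate 2 (limma adjusted p = 0.112) and without WT replicate 1, 3 or 4. The call between the clones was lost under 7 alternatives (limma adjusted p of up to 0.140), namely rescaled libraries and leaving out any 1 of clone 1 replicate 2, clone 2 replicate 1, clone 2 replicate 2, WT replicate 1, WT replicate 3 or WT replicate 4. Nkx6-1 and Shh share chromosome 5 with Lhx5, at 18.8 Mb and 92.0 Mb from its start.

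Nkx2-1, the regulator of ventral forebrain identity, had 0.0402 and 0.0997 FPKM in clone 1, 0.0508 and 0 FPKM in clone 2, and 0.0220, 0.0526, 0.126 and 0.0444 FPKM in WT. Foxa2, the floor plate factor that is also expressed in endoderm and notochord, had 0.270 and 0.0525 FPKM in clone 1, 0.0899 and 0.131 FPKM in clone 2, and 0.0686, 0.118, 0.204 and 0.0484 FPKM in WT. The groups overlapped for both, and the authors' deposited table holds 6.68 mean reads in null and 6.78 in WT for Nkx2-1, and 5.82 in null and 5.27 in WT for Foxa2. Neither passed in the fit without the filter. No difference was detectable at this depth.

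Read together, 5 of the 10 genes had a mean of at least 1 FPKM and were tested, and the same 5 were the ones with at least 1 FPKM in any library. In clone 1 against WT, 3 of the 5 were lower and 0 higher, where 11.4 percent of all 14521 genes tested were called lower and 4.16 percent higher. When clone 1 replicate 2 was left out, 0 of the 5 passed, and when clone 1 replicate 1 was left out, 5 of the 5 were lower. With the libraries rescaled, all genes split into 987 lower and 961 higher, against 1662 lower and 604 higher without rescaling, and 3 of the 5 were still lower. The median log2 change of the 5 genes, without rescaling, was -0.31, against -0.05 over all genes tested. Both clone 1 libraries lay below all 4 WT libraries for 5 of the 5, as they did for 29.2 percent of all genes tested. In clone 2 against WT, 0 of the 5 passed with limma and 1 had an unadjusted p under 0.05, with a median of 0.06 against 0.00 over all genes; 6.96 percent of all genes were called lower and 7.06 percent higher. In clone 2 against clone 1, 5 of the 5 were higher, against 24.9 percent of all genes called higher and 15.0 percent lower (3002 higher and 2925 lower after rescaling, against 3618 and 2176 before it), and their median was 0.43 against 0.05. After rescaling 4 of the 5 were higher, and without clone 1 replicate 2 or without clone 2 replicate 2, 3 of the 5. Both clone 1 libraries lay below both clone 2 libraries for 5 of the 5 and for 40.1 percent of all genes tested. The 3 comparisons share libraries, so their values are given side by side and not as separate evidence.

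**Figure D2:**
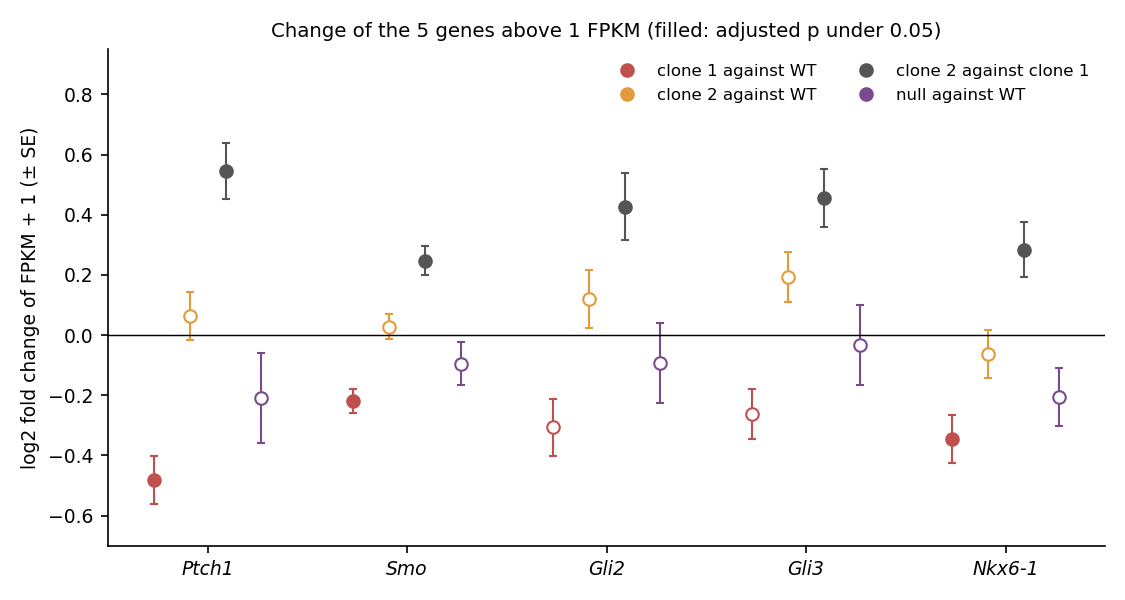
Log2 fold changes of FPKM + 1 with their standard errors for the 5 genes above 1 FPKM in 4 comparisons; filled points passed limma's adjusted threshold of 0.05. Clone 1 against WT lies below 0 for each gene, clone 2 against clone 1 lies above 0 and passed for each, and no gene passed in clone 2 against WT or in null against WT. Of all genes tested, 24.9 percent were called higher in clone 2 than in clone 1.

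Taking the 4 null libraries as 1 group, none of the 5 genes passed the test against WT. Ptch1 averaged 5.36 ± 1.44 FPKM in null and 6.21 ± 0.144 FPKM in WT (SD, n = 4 each), Smo 67.5 ± 7.01 FPKM in null and 72.0 ± 1.19 in WT, Gli3 24.5 ± 4.94 FPKM in null and 24.8 ± 0.894 in WT. The spread within null was several times that within WT, as the values of the clones above show. With limma, 0 of the 5 passed (adjusted p of 1.00 for each, 0 with an unadjusted p under 0.05), where 0.0551 percent of all genes tested did so in either direction. In 0 of the 5 did all null libraries lie above, or all below, every WT library, against 4.26 percent of all genes tested. The smallest p that an exact two-sided permutation test of 4 against 4 libraries can give is 0.0286. The exact permutation test gave p = 0.0571 for Nkx6-1, p = 0.143 for Hhip, p = 0.343 for Ptch1, p = 0.371 for Smo, p = 0.457 for Gli1, p = 0.629 for Gli2, Nkx2-1 and Foxa2 alike, and p = 0.971 for Gli3. Lhx5, the gene of the deleted enhancer, reached the smallest value, p = 0.0286 by the same exact test.

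Beyond the 10 genes, the genes that release, bind and transmit the ligand are grouped by role. Their counts are read against the shares of all genes tested given above: 11.4 percent lower and 4.16 percent higher in clone 1, 6.96 percent lower and 7.06 percent higher in clone 2. Of 8 genes for the ligands and their release, 5 were tested, and 3 fell in clone 1 against WT with 0 higher. These were the Scube genes, whose secreted products help to release the lipid-bearing ligand. Scube2 had 10.5 and 9.05 FPKM in clone 1, 16.3 and 13.3 FPKM in clone 2, and 17.4 to 22.6 FPKM in WT, with log2 changes of -0.98 in clone 1 (limma adjusted p = 0.00365) and -0.43 in clone 2 (limma adjusted p = 0.0494). It was thus lower than WT in every null library. Scube3 had 5.95 and 5.03 FPKM in clone 1, 11.4 and 12.0 FPKM in clone 2, and 8.19 to 9.72 FPKM in WT, and its log2 changes were -0.66 in clone 1 (limma adjusted p = 0.00430) and 0.31 in clone 2 (limma adjusted p = 0.0494). Scube1 changed by -0.40 in clone 1 (limma adjusted p = 0.0130). The median over the 5 genes was -0.40 for clone 1 against 0.09 for clone 2. The 2 calls of clone 2 (Scube2 and Scube3) were lost without clone 2 replicate 2 (0 of 5) and under several other alternatives, and the Scube1 call was lost without clone 1 replicate 2.

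Of 8 genes of ligand reception, 7 were tested: 4 fell in clone 1 with 0 higher, and 2 rose in clone 2 with 0 lower. The clone 1 count was 2 without clone 1 replicate 2, and without clone 2 replicate 2 the clone 2 count was 0. Besides Ptch1 and Smo the genes were Gas1 and Boc, surface proteins that bind the ligand together with Ptch1. Gas1 had 20.9 and 21.3 FPKM in clone 1, 33.4 and 34.5 FPKM in clone 2, and 27.8 to 29.4 FPKM in WT. Boc had 5.71 and 5.33 FPKM in clone 1, 10.3 and 10.2 FPKM in clone 2, and 7.49 to 8.11 FPKM in WT. For both genes the 3 groups did not overlap, with clone 1 lowest and clone 2 highest. Gas1 changed by -0.44 in clone 1 (SE 0.0462, limma adjusted p = 0.00232) and by 0.22 in clone 2 (limma adjusted p = 0.0196), and Boc by -0.45 in clone 1 (limma adjusted p = 0.00529) and 0.34 in clone 2 (limma adjusted p = 0.0147). The clones differed by 0.66 for Gas1 (limma adjusted p = 0.000196) and by 0.78 for Boc (limma adjusted p = 0.000297). The clone 1 calls of both genes held under every alternative tried, whereas those of clone 2 were lost without clone 2 replicate 2, and that of Gas1 also without WT replicate 4. The third coreceptor, Cdon, had 9.70 and 6.57 FPKM in clone 1, 10.2 and 7.62 FPKM in clone 2, and 7.53 to 7.91 FPKM in WT, and passed in neither clone.

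Of 18 tested genes of signal transduction, 1 rose and 3 fell in clone 1, and 2 rose and 1 fell in clone 2, shares near those over all genes. In clone 2 against clone 1, 10 were higher and 2 lower, where 24.9 percent of all genes tested were called higher and 15.0 percent lower. Gpr161, a ciliary receptor that keeps the pathway off, had 3.37 and 2.997 FPKM in clone 1, 5.83 and 7.21 FPKM in clone 2, and 4.08 to 5.13 FPKM in WT. Tulp3, which carries Gpr161 into the cilium, ran the other way, with 34.5 and 32.1 FPKM in clone 1, 22.4 and 22.4 FPKM in clone 2, and 25.8 to 29.4 FPKM in WT. The groups did not overlap for either gene. Clone 2 minus clone 1 was 0.84 for Gpr161 (limma adjusted p = 0.00127), -0.55 for Tulp3 (limma adjusted p = 0.000944), 0.56 for Sufu, which restrains the Gli factors (limma adjusted p = 0.00354), and 0.39 for Prkaca, a catalytic subunit of protein kinase A (limma adjusted p = 0.00119). Without clone 1 replicate 2, 0 of the 18 passed in clone 1 against WT, and without clone 2 replicate 2, 0 passed in clone 2 against WT. The counts between the clones were then 5 higher and 2 lower, and 4 higher and 1 lower.

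All 25 genes of the primary cilium, the organelle in which Smo acts, were above 1 FPKM. In clone 1 against WT 3 fell and 0 rose, and in clone 2 against WT 1 rose and 2 fell, with medians of -0.09 and -0.03. These shares lie near the background of all genes tested. Rpgrip1l, a protein of the ciliary base, changed by -0.42 in clone 1 (limma adjusted p = 0.0205). Tmem67, another protein of the ciliary base, changed by -0.59 in clone 2 (limma adjusted p = 0.00705). Its gene lies in a stretch of chromosome 4 from 8535644 to 28967499 (GRCm38) in which 45 of 46 tested genes were lower in clone 2 than in WT and 39 passed the threshold; none of the 10 genes above lies there. Without clone 1 replicate 2 the clone 1 count was 1 higher and 0 lower, and without clone 2 replicate 2 the clone 2 count was 0.

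**Figure D3:**
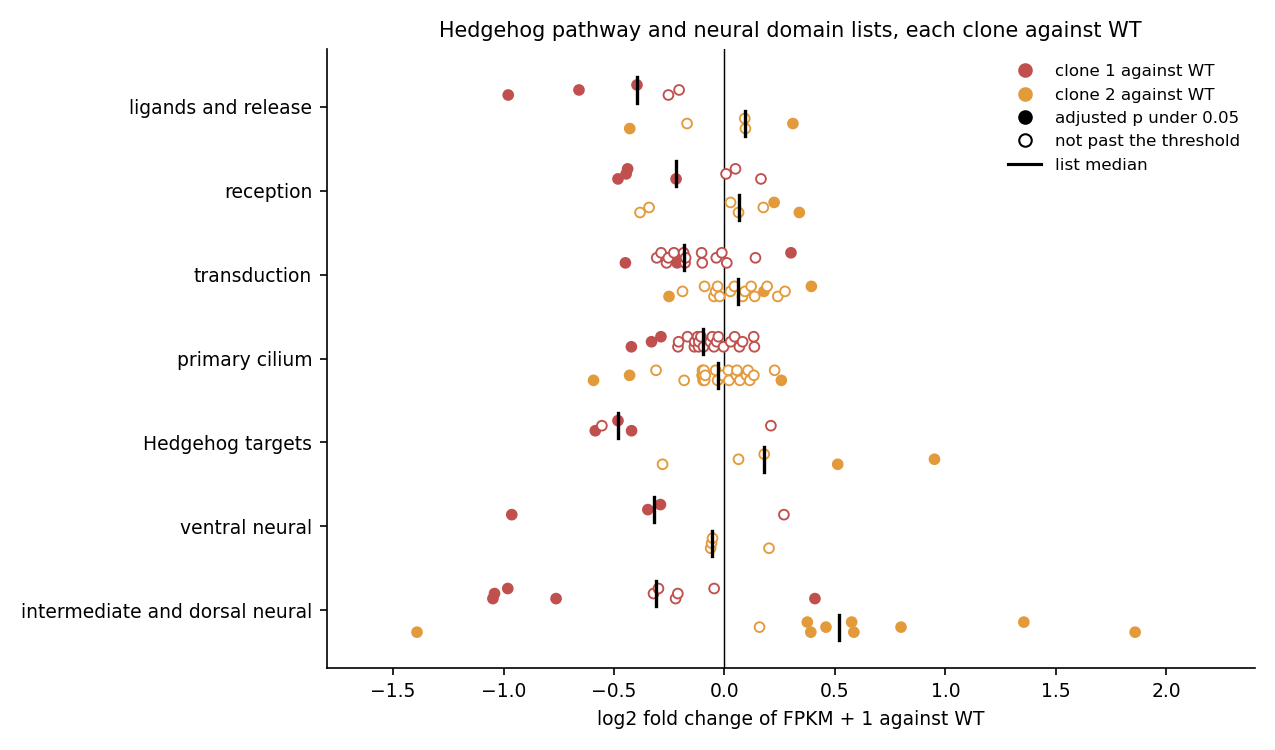
Log2 fold changes of FPKM + 1 against WT for every tested gene of 7 lists, clone 1 above clone 2 in each row; filled points passed limma's adjusted threshold of 0.05 and bars mark list medians. Clone 1 medians lie below 0 in every row, and the intermediate and dorsal genes have the highest clone 2 median, 0.52. Bcl2 and Pax7, which reached 1 FPKM only through clone 2, are not drawn.

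Of 11 genes named as Hedgehog targets and found in the table, 6 had a mean of at least 1 FPKM. Bcl2, an inhibitor of cell death, reached that mean only through clone 2 (0.811 FPKM over the other 6 libraries) and is left out of the counts. Of the other 5, 3 fell and 0 rose in clone 1 against WT, with a median of -0.48. In clone 2 against WT, 2 rose and 0 fell, with a median of 0.18. Of all genes tested, 11.4 percent were called lower and 4.16 percent higher in clone 1, with a median of -0.05. In clone 2 the shares were 6.96 percent lower and 7.06 percent higher, with a median of 0.00. Besides Ptch1, the genes that fell in clone 1 were Ccnd2, a G1 cyclin (-0.58, limma adjusted p = 0.0160), and Mycn, a proto-oncogene of neural progenitors (-0.42, limma adjusted p = 0.0256). The genes that rose in clone 2 were Ccnd1, another G1 cyclin (0.95, limma adjusted p = 0.0255), and Ccnd2 (0.51, limma adjusted p = 0.0254). Ccnd1 had 16.3 and 14.9 FPKM in clone 1, 38.4 and 55.3 FPKM in clone 2, and 18.3 to 27.3 FPKM in WT. Of the pathway's readouts, Ptch1 was among the genes that fell in clone 1, while Gli1 and Hhip were below 1 FPKM. The G1 cyclins are also driven by other pathways, and the cause of these changes was not tested. Bcl2 had 0.702 and 0.594 FPKM in clone 1, 1.85 and 2.46 FPKM in clone 2, and 0.673 to 1.09 FPKM in WT. In clone 1, 0 of the 5 passed without clone 1 replicate 2, and without clone 2 replicate 2 the clone 2 count was 0 of 5 and its median -0.01.

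Of 24 ventral neural genes, 20 were below a mean of 1 FPKM, among them the classic markers Olig2, Nkx2-2 and Nkx2-9, and Nkx2-4 was at 0 in all 8 libraries. Of the 4 tested, 3 fell in clone 1 with 0 higher, and 0 passed in clone 2. Of all genes tested, 11.4 percent were called lower and 4.16 percent higher in clone 1. In clone 2 the shares were 6.96 percent lower and 7.06 percent higher. Spon1, a matrix protein of the floor plate, had 5.50 and 4.75 FPKM in clone 1, 9.69 and 11.3 FPKM in clone 2, and 11.5, 10.3, 10.98 and 10.8 FPKM in WT. Clone 1 lay far below both other groups. Spon1 changed by -0.96 in clone 1 (SE 0.0830, limma adjusted p = 0.000731) and by -0.05 in clone 2 (limma adjusted p = 0.704). The clones differed by 0.91 (limma adjusted p = 0.000424), and the clone 1 and between-clone calls of Spon1 held under every alternative tried. The other gene that fell with Nkx6-1 was Ntn1, an axon guidance cue of the floor plate (-0.29, limma adjusted p = 0.0168), whose call was lost without clone 1 replicate 2; without that library 1 of the 4 passed. The remaining gene, Lmx1a, which marks both floor plate and roof plate, passed in neither clone, with log2 changes of 0.27 in clone 1 (limma adjusted p = 0.259) and 0.20 in clone 2 (limma adjusted p = 0.411).

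Most genes of intermediate and dorsal neural identity were higher in clone 2 than in clone 1. Of 11 with a mean of at least 1 FPKM, Pax7, a dorsal paired-box gene, reached it only through clone 2 (0.765 FPKM over the other 6 libraries) and is left out of the counts. Of the other 10, 1 rose and 4 fell in clone 1 against WT, with a median of -0.31. In clone 2 against WT 8 rose and 1 fell, with a median of 0.52. The shares of all genes tested were 11.4 percent lower and 4.16 percent higher in clone 1. They were 6.96 percent lower and 7.06 percent higher in clone 2. Between the clones, 8 were higher and 1 lower in clone 2, where 24.9 percent of all genes tested were called higher and 15.0 percent lower. Zic1, a dorsal zinc finger gene, had 0.457 and 0.313 FPKM in clone 1, 7.90 and 11.1 FPKM in clone 2, and 2.56, 1.09, 2.07 and 1.92 FPKM in WT. Wnt1, a signal of the dorsal midline and midbrain, had 43.4 and 50.9 FPKM in clone 1, 165 and 177 FPKM in clone 2, and 85.0 to 104 FPKM in WT. Pax7 had 0.497 and 0.559 FPKM in clone 1, 2.62 and 3.30 FPKM in clone 2, and 0.773 to 1.05 FPKM in WT. In Zic1 and Wnt1 the groups were apart, with clone 1 lowest and clone 2 highest. The values of Pax7 are a description only, because its level in clone 2 is what brought it past the filter. Clone 2 minus clone 1 was 2.91 for Zic1 (limma adjusted p = 0.000253) and 1.84 for Wnt1 (limma adjusted p = 9.75e-05). The gene that fell in clone 2 was Pax6, which is also a forebrain gene, at 32.1 and 30.3 FPKM in clone 1, 17.8 and 11.1 FPKM in clone 2, and 36.2 to 39.8 FPKM in WT. The gene that rose in clone 1 was Msx1, a homeobox gene of the dorsal midline (0.41, limma adjusted p = 0.0216), which changed by 0.16 in clone 2 (limma adjusted p = 0.279). Without clone 1 replicate 2 the clone 1 count was 0 higher and 1 lower, and without clone 2 replicate 2 the clone 2 count was 2 higher and 1 lower.

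**Figure D4:**
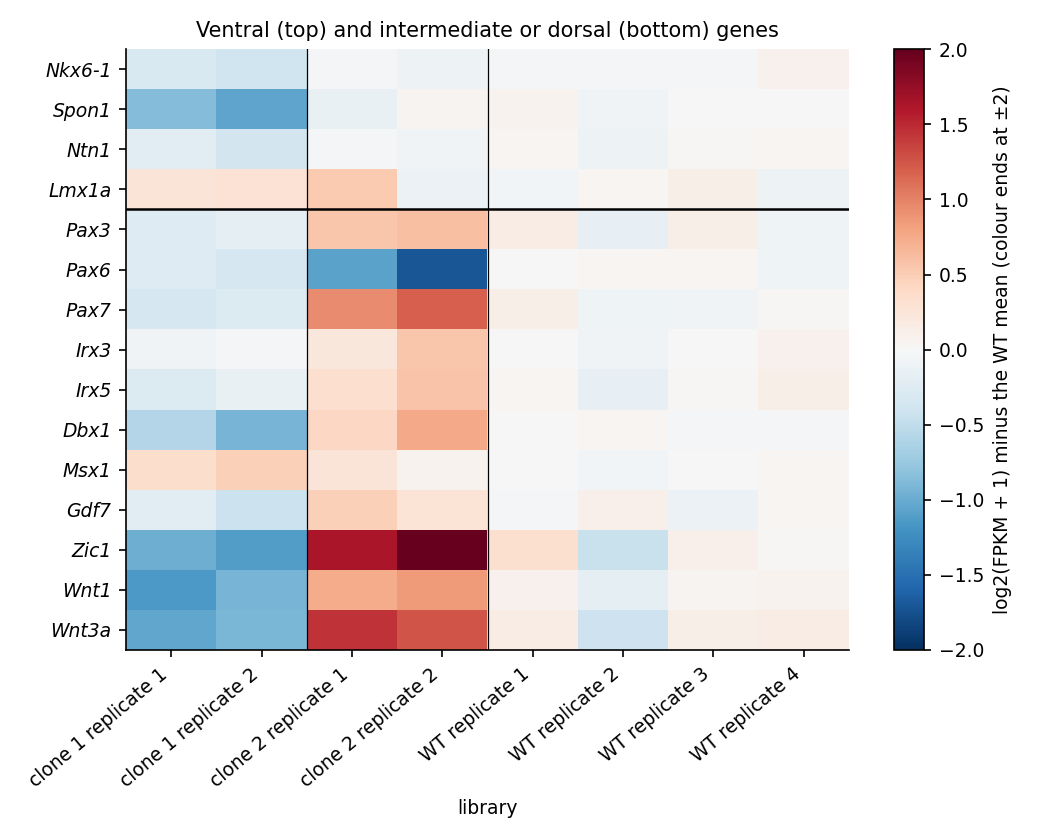
Log2(FPKM + 1) of the tested ventral genes (above the line) and intermediate or dorsal genes (below it) in each library, minus the WT mean of the gene; columns are libraries and the colour scale ends at 2 in either direction. Spon1 is lower in both clone 1 libraries, and Zic1 and Wnt3a are higher in both clone 2 libraries. Pax7, which reached a mean of 1 FPKM only through clone 2, is drawn as a description.

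Marker lists of other cell states were summed in each library. Summed over 7 genes, pluripotent or epiblast markers stood at 171 to 191 FPKM in clone 1, 71.9 to 82.3 FPKM in clone 2 and 98.2 to 124 FPKM in WT, so that clone 1 had the most and clone 2 the least. In clone 1 against WT, 5 of 5 tested genes of that list rose, among them Dppa4 (1.02, limma adjusted p = 0.00430), where 4.16 percent of all genes were called higher; without clone 1 replicate 2 the count was 2. The 11 anterior neural progenitor markers summed to 453 to 504.3 FPKM in clone 1, 369.9 to 405 FPKM in clone 2 and 499.3 to 567 FPKM in WT. Of these 11, Lhx5 included, 4 fell and 0 rose in clone 1 against WT, with a median of -0.45. In clone 2 against WT 7 fell and 2 rose, with a median of -1.28. Over all genes tested, 11.4 percent were called lower in clone 1, and 6.96 percent lower and 7.06 percent higher in clone 2. Some of these calls were lost with a library left out. The 12 endoderm markers, of which Afp, Hnf4a and Cer1 were at or near 0, summed to 13.0 to 16.9 FPKM in clone 1, 8.72 to 14.0 FPKM in clone 2 and 7.40 to 10.2 FPKM in WT, with Trh the highest. The 8 axial mesoderm and notochord markers, with Noto at 0 in all libraries, summed to 3.90 FPKM in each clone 1 library, 3.63 to 3.64 FPKM in clone 2 and 2.90 to 3.38 FPKM in WT. The 5 neuronal markers found summed to 45.0 to 47.6 FPKM in clone 1, 27.4 to 32.3 FPKM in clone 2 and 41.7 to 48.5 FPKM in WT. The part of any of these markers in the differences of the Hedgehog and ventral genes was not tested.

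Across the 8 libraries the 5 genes above 1 FPKM varied together, with a Pearson r of log2(FPKM + 1) between 0.743 for Gli3 and Nkx6-1 and 0.976 for Ptch1 and Smo. The libraries share their line in pairs, so these values describe the 3 groups and carry no p. By the same measure the genes most like Ptch1 were Ctdsp2 (r of 0.992), Hmgb1-ps2 (0.992) and Cadm4 (0.990), and those most like Smo were Net1 (0.992), Fam171b (0.991) and Atrnl1 (0.990). Gli2 was nearest to Prdm2 (0.995), Rybp (0.994) and Smarcc1 (0.994), Gli3 to Ppp2r5e (0.995), Prps1l3 (0.990) and Ercc3 (0.988), and Nkx6-1 to Lypla1 (0.991), Kit (0.982) and Kars (0.981). None of these nearest genes was another of the 10.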

How the data were processed

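Poly(A) RNA was sequenced in 8 libraries, 2 of clone 1, 2 of clone 2 and 4 of WT. Per the file headers, the authors computed FPKM for each library and averaged them by genotype. Also deposited are mean read counts by genotype, a signal whose scaling the sources used here do not give, the authors' fold (a ratio of null over WT) and a p-value per gene with no stated test. The submitters' processing notes name TopHat2, Cufflinks, DESeq2, SAMtools and FastQC, with mm10 and GRCm38 as builds, and give no roles. Strand handling is not stated, so overlapping genes cannot be told apart with certainty. Library depth is unknown, because per-library read counts were not analysed here, and an FPKM of 0 can be a failed estimate. Column names gave each library's group; numbers of the null columns restart in each clone, so these were assigned to a clone only. All 8 columns were mapped.

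limma 3.58.1 in R 4.3.3, with trend and robust moderation, was fitted to the 14521 genes that averaged at least 1 FPKM, on log2(FPKM + 1), with Benjamini-Hochberg adjustment over all of them and a threshold of 0.05; this scale understates changes of low genes. Null against WT used 2 groups, and the clone comparisons a fit of 3 groups sharing 1 estimate of spread. The script was tested on simulated data. An exact two-sided permutation test (scipy 1.17.1) was used for single genes. The genes, lists and tests were chosen with earlier results of these data known. Named from the lists were up to 4 genes past the threshold per list and comparison, in order of adjusted p (where none passed, the gene of lowest p), and the 3 genes most correlated with each gene above 1 FPKM; a few others (Cdon, ligands, marker genes) were named after their values were seen. Alternatives were a pseudocount of 0.1, no filter, both, rescaled libraries, correlated libraries of a line, the mean of both clones, and each library left out. Counts within each list leave out genes that reached 1 FPKM only through 1 group. Some list genes are not reported here, and list counts leave them out. Positions are from GENCODE M21 (GRCm38).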

Additional observations from a re-analysis of the deposited data

Results flagged for a closer look

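The 4 null and the 4 WT libraries of each named gene were examined, 120 groups in all. In 6 of them, all WT groups, 1 library stood far from the other 3. For 4 libraries drawn alike, chance alone flags about 1 in 20 groups. Each null group joins 2 libraries of clone 1 and 2 of clone 2, so that rate need not hold for the null groups. The share among the WT groups alone was higher than that among all 120. Smo was highest in WT replicate 3, at 73.8 FPKM. WT replicate 2 was the lowest for Gli3 (23.4 FPKM), Rpgrip1l (3.88 FPKM), Wnt1 (85.0 FPKM) and Wnt3a (2.32 FPKM), and the highest for Hesx1 (36.7 FPKM).

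For 63 genes of the lists, Bcl2 and Pax7 included, clone 1 and clone 2 differed from each other past limma's threshold. Their changes against WT thus differ by a test of the difference itself. Over all 14521 genes tested, 24.9 percent were called higher in clone 2 than in clone 1 and 15.0 percent lower. The 46 of the 63 that the rule for named genes takes are given here. Bcl2 and Pax7 were tested only because of their level in clone 2, so their values are a description. Values are clone 2 minus clone 1 on the log2(FPKM + 1) scale. Among the Hedgehog and ventral genes the differences were 0.25 for Smo, 0.28 for Nkx6-1, 0.43 for Gli2, 0.46 for Gli3 and 0.55 for Ptch1. In the other pathway genes they were 0.35 for Hhat, 0.55 for Scube2, 0.97 for Scube3, 0.66 for Gas1, 0.78 for Boc, 0.23 for Cul3, 0.39 for Prkaca, 0.56 for Sufu, 0.84 for Gpr161 and -0.55 for Tulp3. In genes of the cilium they were 0.38 for B9d1, 0.40 for Tctn2, 0.48 for Rpgrip1l, 0.56 for Dync2h1, -0.38 for Ift57 and -0.66 for Tmem67. Among the targets they were 0.60 for Mycn, 0.93 for Bcl2, 1.10 for Ccnd2 and 1.51 for Ccnd1. In ventral and dorsal neural genes they were 0.23 for Ntn1, 0.91 for Spon1, 1.35 for Dbx1, 1.37 for Pax7, 1.84 for Wnt1, 2.34 for Wnt3a and 2.91 for Zic1. In anterior neural genes they were 0.83 for Nes, 0.86 for Sox1, -0.34 for Otx2, -0.97 for Rax, -1.09 for Pax6 and -2.77 for Hesx1. In the remaining marker genes they were -0.65 for Elavl3, -0.77 for Stmn2, -0.92 for Dnmt3b, -1.01 for Dppa4, -1.16 for Hhex, -1.29 for Fgf5, -1.59 for Nanog and -1.93 for Pou5f1.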

How the results depend on the processing

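Counts of genes past limma's threshold moved as follows. The comparison null against WT gave 8 genes, and 14 with a pseudocount of 0.1 and no filter, 5 with rescaled libraries, 3 with libraries of a line treated as correlated and 106 when the clones were averaged within the fit of 3 groups; leaving out a library gave 3 to 8. The comparison clone 1 against WT gave 2266, then 1506 with no filter and 1490 with a pseudocount of 0.1 and no filter, and 438 (without clone 1 replicate 2) to 3091 with a library left out. The comparison clone 2 against WT gave 2036, then 1160 and 1300 under the same settings, and 172 (without clone 2 replicate 2) to 2425. The comparison clone 2 against clone 1 gave 5794, and 3099 to 5904 with a library left out. Over 1504 gene results under alternatives, 1310 kept direction and side of the threshold, 183 fell short of it, 7 came to pass it and 4 changed sign, none of which had been called. The sign changes came from left-out libraries: without clone 1 replicate 2, Gli2 in null against WT was 0.0295 (range -0.17 to 0.0295) and Gli3 0.0948 (range -0.12 to 0.0948), without clone 2 replicate 2, Ptch1 in clone 2 against WT was -0.0226 (range -0.0226 to 0.15), and without clone 2 replicate 1, Lmx1a in clone 2 against WT was -0.115 (range -0.115 to 0.518). The causes were not tested. No paired analysis was possible because numbers of the null columns restart in each clone and carry no number shared with WT. Genes below 1 FPKM rest on few reads, which limits what could be detected in Shh, Hhip, Nkx2-1 and Foxa2.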

Other observations

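In several ventral genes below a mean of 1 FPKM, all libraries of a group lay apart from WT. They were picked after their values were seen and are given as values with no test. Such separation was common among the 14521 genes tested: both clone 1 libraries lay below all WT libraries for 29.2 percent. All null libraries lay on one side of WT for 4.26 percent. The share among genes below 1 FPKM is not given here, so no result is read from these genes. Foxd1, a forkhead gene of the ventral diencephalon, had 0.188 and 0.130 FPKM in clone 1, 0.367 and 0.259 FPKM in clone 2, and 0.980, 0.677, 0.999 and 0.735 FPKM in WT, so that every null library lay below every WT library. Dlx5, a homeobox gene of ventral forebrain and of the neural plate border, had 0.642 and 0.626 FPKM in clone 1, 0.130 and 0 FPKM in clone 2, and 0.261 to 0.349 FPKM in WT. Its order, clone 1 highest and clone 2 lowest, was the reverse of that of Ptch1 and Gli3. Lhx6, a LIM homeobox gene of ventral telencephalic interneurons, had 0.361 and 0.313 FPKM in clone 1, 0.760 and 0.850 FPKM in clone 2, and 0.710 to 0.893 FPKM in WT, so that clone 1 lay below WT and clone 2 within the WT range.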
